A study of Mus musculus with 6 samples.

Results

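Collagen genes were described in RNA-Seq data of the sciatic nerve of mice at postnatal day 9 (P9). Members were chosen by name, as every gene of the deposited table whose symbol is Col, a type number, the letter a and a chain number. This rule took 44 of 46603 genes, from 27 collagen types. The study prepared 3 libraries from controls, which carried the conditional *Ep400* allele without Cre, and 3 from *Ep400ΔPNS* mice, which carried *Dhh::Cre* and conditional *Ep400*. The labels give all 6 mice a mixed 129SvJ/C57Bl/6J background, while the methods of the study name C3H and C57Bl/6J. *Dhh::Cre* deletes *Ep400*, a subunit of a chromatin remodeling complex, in Schwann cells (SCs) from the late precursor or early immature stage. The study describes this deletion as specific to SCs, and at a later age it saw Ep400 retained in nerve cells without an SC marker.

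Each value below is the mean over both genotypes together. The table holds 1 level per gene, the mean over the 6 libraries of reads divided by a library size factor. These are given as normalized reads. It is therefore not a level of control nerves, and no difference between *Ep400ΔPNS* and control nerves is given. *Ep400* itself had a mean of 4490 normalized reads, which cannot check the labels because the genotypes are averaged in it. Levels of different genes were compared per kb of annotated exons, and such levels carry no spread between animals. In RNA of a whole nerve, few cells of a type and little RNA per cell cannot be told apart.

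Collagens are proteins of 3 chains that wind into a triple helix, in which glycine must recur every 3 residues. Fibrillar collagens form the banded fibrils of the endoneurium and epineurium, and type IV collagens form the sheet of the basement membrane that wraps each SC and its axon. Network-forming collagens build lattices beneath some epithelia and endothelia. Transmembrane collagens sit in the plasma membrane and can be shed from it. In peripheral nerve, SCs, endoneurial fibroblasts, perineurial cells and vessels are all known sources of collagen, and assembly of the basement membrane accompanies myelination.

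The repeat that makes a protein a collagen can be read directly in the coding exons. Glycine is encoded by codons that begin with GG, so that GG recurs every 9 bases. The 4 exons below are shown because they are the first 54-base exons with GG at each ninth base, counted from the first base, in the most abundant fibrillar members. They were read 5′ to 3′ from the GENCODE M21 transcripts (mm10), on the strand of the gene, and capitals mark the GG that recurs every 9 bases.
Col1a1 exon 8: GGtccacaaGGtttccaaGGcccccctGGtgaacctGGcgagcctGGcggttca
Col1a2 exon 8: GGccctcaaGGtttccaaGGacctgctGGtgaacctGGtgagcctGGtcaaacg
Col3a1 exon 6: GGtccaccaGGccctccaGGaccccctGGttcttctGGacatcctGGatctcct
Col5a1 exon 15: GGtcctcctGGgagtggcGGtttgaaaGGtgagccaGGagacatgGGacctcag
Exon 8 of *Col1a1* lies at chr11:94939904-94939957 (plus strand), exon 8 of *Col1a2* at chr6:4515481-4515534 (plus strand), exon 6 of *Col3a1* at chr1:45325360-45325413 (plus strand) and exon 15 of *Col5a1* at chr2:27965251-27965304 (plus strand). All 4 are coding exons, and each holds 6 glycine codons in this register. Other glycine codons in them are in lower case.

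This 54-base unit was most frequent in the fibrillar class. Of 627 internal coding exons of the 11 fibrillar members, 305 (48.6%) were exactly 54 bases long, and 302 of these 305 had GG at every ninth base. A length that is a multiple of 9 bases was found for 526 (83.9%) of the 627 exons, the commonest other length being 2 such units, with 84 exons. In single fibrillar genes this share ranged from 76.6% to 90%. The share was 70.7% for transmembrane, 65.5% for the anchoring fibril collagen *Col7a1*, 55.1% for fibril-associated (FACIT), 54.6% for type VI and 47.2% for type IV members. Multiplexins had 37.7%, and the other 2 members, *Col26a1* and *Col28a1*, had 30.2%. Among 18539 other protein-coding genes with a mean above 0, 13.7% of 151132 internal coding exons were a multiple of 9 bases long and 0.451% were 54 bases long. *Col8a1*, *Col8a2* and *Col10a1*, the network-forming members, have 2 coding exons each and no internal one.

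Runs of the repeat differed between fibrillar and type IV members, while the ranges of some other classes overlapped. A run was counted where at least 5 codons beginning with GG followed each other every 3 codons. Fibrillar members had 2 or 3 runs, and in 9 of the 11 a single run spanned 55.2% to 74.1% of the codons. The longest run held 338 triplets in *Col1a1*, 339 in *Col1a2*, 344 in *Col3a1*, 338 in *Col5a1* and 339 in *Col5a2*, but 216 in *Col24a1* and 217 in *Col27a1*, or 37.4% and 35.3% of their codons. In *Col24a1* and *Col27a1* a run of 93 triplets followed it. Type IV chains were as rich in the repeat, with 74.9% to 78.8% of codons in runs, but broken into 22 to 27 runs of at most 39 to 66 triplets. The 3 network-forming members had 9 runs each, with a longest run of 59 to 61 triplets. Transmembrane members had 5 to 14 runs, the longest of 40 to 56 triplets. Type VI chains held 3 to 5 runs that covered 10.05% to 31.9% of their codons, so most of each coding sequence lies outside the repeat. *Col9a1*, *Col9a2*, *Col9a3* and *Col22a1* each had a longest run of 113 triplets. Of 18389 other genes searched, 48 (0.261%) had a run of at least 10 triplets, against all 44 members.

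**Figure D1:**
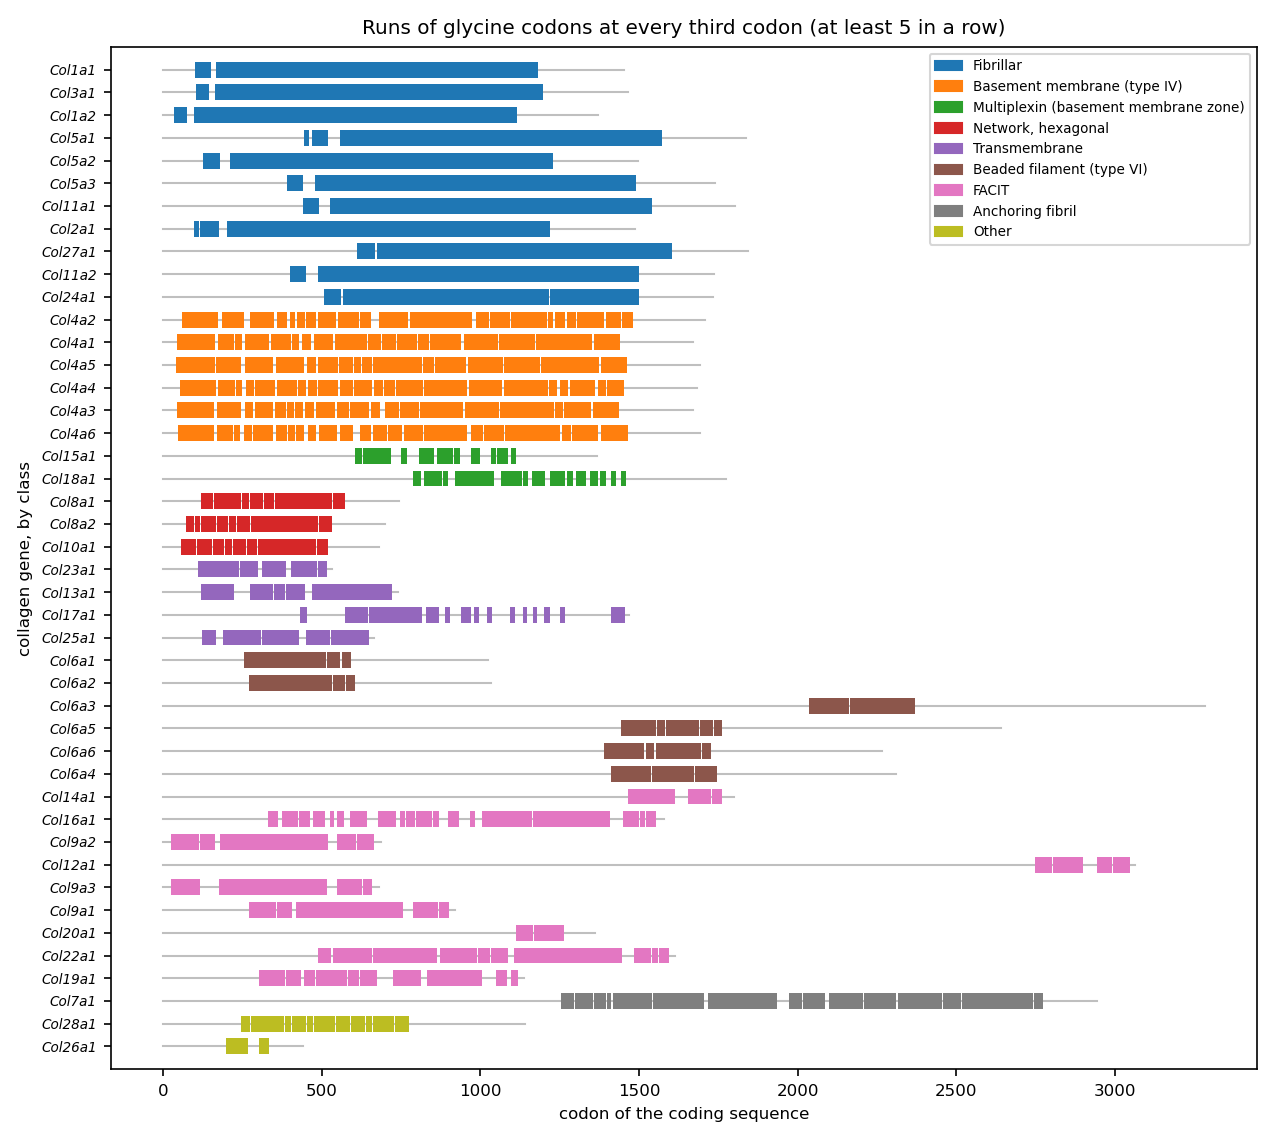
Runs of at least 5 codons beginning with GG every 3 codons, drawn along the coding sequence (x axis, codon number) for each of the 44 collagen genes (y axis, grouped by class). Coloured bars are runs and grey lines the whole coding sequence. In 9 of the 11 fibrillar members 1 bar spans 55.2% to 74.1% of the codons, in *Col24a1* and *Col27a1* the longest bar spans less, and type IV members show 22 to 27 shorter bars.

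The choice of the last base in these glycine codons differed among members. GGT made up 53.8% of the glycine codons in runs of *Col1a1* and 51.3% in *Col1a2*, followed by 40.7% in *Col2a1* and 40.6% in *Col3a1*. The median over the 44 members was 23.1% for GGT and 36.9% for GGA. GGG was rarest, with a median of 16.0% and only 1.41% in *Col1a1*. The chains of type I collagen were thus those with the highest share of GGT. Whether this share goes with the level of a member was not tested.

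All 44 members had a mean of at least 10 normalized reads. This limit is low, as *Col10a1*, the lowest member at 24.8, stood above 51.1% of the 30644 genes with a mean above 0. The share of all genes that pass the limit was not computed. Together the 44 members took 7.27% of the summed means of all genes, which came to 25.6 M normalized reads per average library. 6 members had means below 100. Among all genes, *Col1a1* ranked 2 by mean and *Col3a1* ranked 4. *Col1a2* ranked 7 and *Col5a1* ranked 15. *Col1a1*, *Col3a1* and *Col1a2* alone held 71.0% of all collagen reads, and without them the other 41 members took 2.11% of the summed means. Per kb of all exons, *Col1a1* was 28880 times as high as *Col25a1*, the lowest member on this scale. With the longest transcript *Col17a1* was lowest at 4.57 per kb and *Col25a1* had 6.62 per kb, and with coding length these genes had 5.80 and 22.2 per kb. The error of these means from counting alone ran from 0.0506% for *Col1a1* to 8.20% for *Col10a1*, and it does not include differences between animals.

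**Figure D2:**
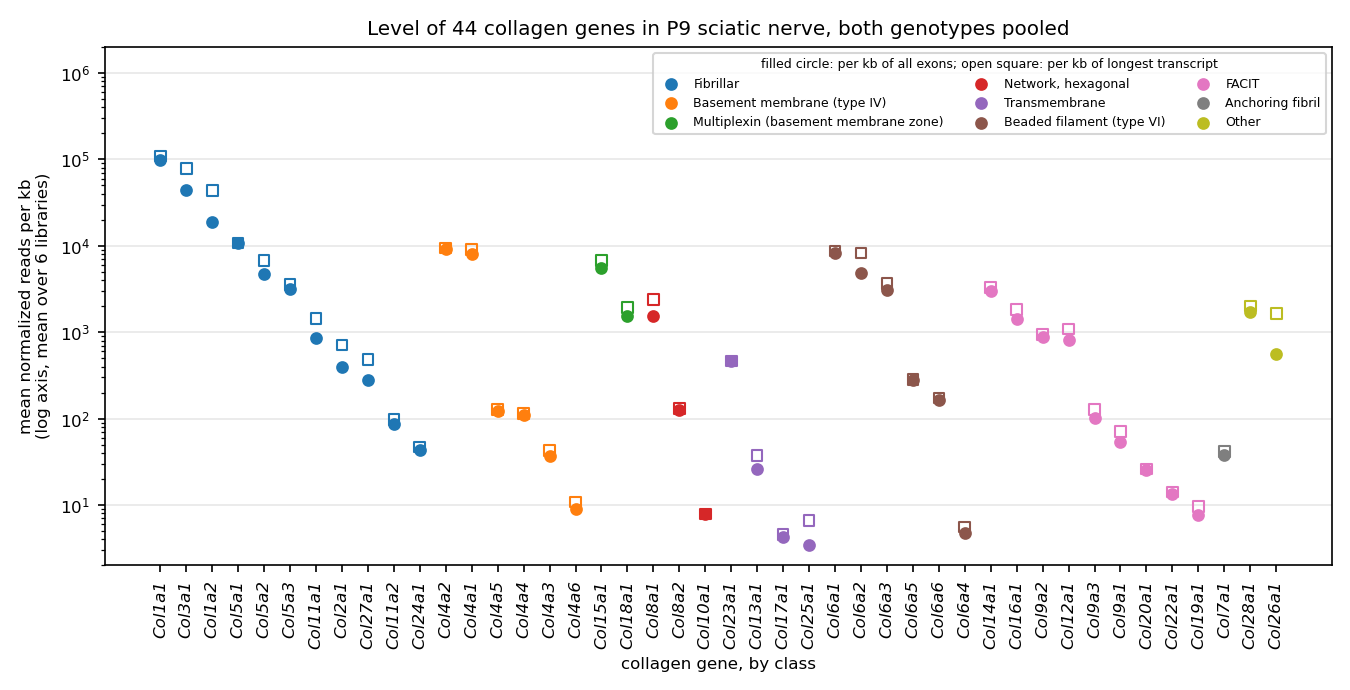
Level of each of the 44 collagen genes (x axis, grouped by class and sorted within it) in mean normalized reads per kb over 6 libraries of both genotypes (y axis, log scale). Filled circles use all annotated exons and open squares the longest transcript as gene length. *Col1a1* stands highest at 99007 per kb and *Col25a1* lowest at 3.43 per kb of all exons, while with the longest transcript *Col17a1* is lowest at 4.57 per kb.

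The fibrillar collagens made up 77.8% of the collagen level per kb. *Col1a1* (chr11:94936224-94953042, plus strand, ENSMUSG00000001506), which encodes the main chain of type I collagen of tendon, bone and connective tissue, reached 99007 normalized reads per kb (mean 649784). *Col3a1* (chr1:45311538-45349706, plus strand), the chain of the finer type III fibrils, followed with 44685 per kb (mean 438627). *Col1a2* (chr6:4504814-4541544, plus strand), the partner chain of type I, had 18890 per kb (mean 234724). Both values depend on gene length. Per kb of the longest transcript *Col3a1* came to 78833 and *Col1a2* to 43890. All annotated exons of *Col1a2* add up to 12426 bases and its longest transcript to 5348, against 9816 and 5564 bases for *Col3a1*.

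Type V collagen, which is built into type I fibrils and limits their diameter, came next. *Col5a1* had 10687 per kb (mean 90728), *Col5a2* 4665 per kb (mean 44744) and *Col5a3* 3201 per kb (mean 21794). A chain closely related to *Col5a3* is known to be made by SCs of rats. Type XI and type II collagens, the fibrillar collagens of cartilage, were lower. *Col11a1* had 865 per kb (mean 11024), *Col2a1* 394 per kb (mean 3646) and *Col11a2* 86.2 per kb (mean 593). *Col27a1* at 282 per kb (mean 3670) and *Col24a1* at 43.9 per kb (mean 334), both with shorter helices, completed the class. Thus fibrillar members spanned all levels from the top of all collagens to the lower ranks.

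The basement membrane chains of type IV held 7.48% of the collagen level per kb, nearly all of it in 1 pair. Their share was 5.91% with the longest transcript and 5.72% with coding length. *Col4a2* had 9201 per kb (mean 60900) and *Col4a1* 8080 per kb (mean 60310), the chains found in almost every basement membrane. The chains of the specialised networks were far lower. *Col4a5* had 124 per kb (mean 830), *Col4a4* 110 per kb (mean 1164) and *Col4a3* 36.9 per kb (mean 368), whose products form the network of the kidney glomerulus. *Col4a6* had 9.07 per kb (mean 72.3), the lowest of the class. The multiplexins *Col15a1* and *Col18a1*, which carry heparan or chondroitin sulfate chains and lie at the basement membrane, added 3.02%. *Col15a1*, needed in mice for the sorting of small axons, had 5552 per kb (mean 35250), and *Col18a1*, the precursor of endostatin, had 1534 per kb (mean 10773).

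Network-forming collagens were represented almost entirely by *Col8a1*. This chain of type VIII collagen, known from vessel walls and from the basement membrane of the corneal endothelium, had 1554 per kb (mean 12169). *Col8a2*, which can assemble with it, had 127 per kb (mean 570). *Col10a1*, the collagen of hypertrophic cartilage, had 7.92 per kb (mean 24.8). The class held 0.719% of the collagen level, or 1.34% with coding length.

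Transmembrane collagens held 0.210%, or 0.406% with coding length, the least of any class with more than 1 member under both lengths. *Col23a1* led with 460 per kb (mean 2638). *Col13a1*, known from the neuromuscular junction, had 25.8 per kb (mean 119), and *Col17a1*, the collagen of hemidesmosomes in skin, had 4.25 per kb (mean 25.6). *Col25a1*, which neurons and developing muscle express and which motor innervation requires in mice, had 3.43 per kb (mean 44.4). *Col13a1*, *Col17a1* and *Col25a1* lay below the median collagen level of 427 per kb, and *Col23a1* was above it. With the longest transcript *Col23a1* had 466 per kb and was below the median of 598 per kb.

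Type VI collagen, a beaded filament of the pericellular space, held 7.07%, or 6.62% with the longest transcript and 6.81% with coding length. It thus stood below type IV per kb of all exons but above it with those other lengths. *Col6a1* had 8172 per kb (mean 35794), *Col6a2* 4884 per kb (mean 40664) and *Col6a3* 3091 per kb (mean 36981), the classical chains of the molecule. By mean the order was *Col6a2*, *Col6a3* and *Col6a1*, the exons of *Col6a3* adding up to 11963 bases and those of *Col6a1* to 4380. The later described chains, which can take the place of *Col6a3*, were lower, with 278 per kb for *Col6a5* (mean 2619), 166 per kb for *Col6a6* (mean 1522) and 4.80 per kb for *Col6a4* (mean 40.9). These 3 genes lie side by side on chromosome 9, and *Col6a5* was 58.0 times as high as its neighbour *Col6a4*.

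FACIT collagens, which bind to the surface of fibrils, held 2.71%. *Col14a1* had 3039 per kb (mean 21312), *Col16a1* 1406 per kb (mean 9489) and *Col12a1* 822 per kb (mean 12513). Type IX collagen, which covers cartilage fibrils, was uneven, with 887 per kb for *Col9a2* (mean 2745), 101 per kb for *Col9a3* (mean 390) and 53.5 per kb for *Col9a1* (mean 271). *Col20a1* at 25.5 per kb (mean 131), *Col22a1* of the myotendinous junction at 13.6 per kb (mean 125) and *Col19a1* at 7.62 per kb (mean 52.5) were low. *Col21a1*, which is also on the class list, was not among the symbols that the rule took. *Col7a1*, which anchors skin to its basement membrane, had 37.7 per kb (mean 388). *Col28a1*, known in mice from glia of peripheral nerve and from nodes of Ranvier, reached 1731 per kb (mean 8489), and *Col26a1* had 557 per kb (mean 4554).

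Chains of 1 molecule were then set side by side. Type I collagen joins 2 chains of *Col1a1* with 1 of *Col1a2*, and the ratio of their levels per kb was 5.24. It was 2.497 per kb of the longest transcript and 2.61 per kb of coding sequence. *Col5a1* over *Col5a2*, taken here as 2 chains to 1 in a molecule without *Col5a3*, gave 2.29, or 1.60 with the longest transcript. *Col4a1* over *Col4a2*, again 2 chains to 1, gave 0.878, which became 0.966 with the longest transcript and turned to 1.01 with coding sequence. Their transcripts were thus nearly equal under all 3 lengths, although the molecule needs 2 *Col4a1* chains for each *Col4a2* chain. *Col6a1* over *Col6a2* gave 1.67, but 1.05 with the longest transcript and 0.888 with coding sequence, so that its direction depends on the length used. *Col6a3* over *Col6a1* gave 0.378 per kb but 1.03 between the means without length.

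Other pairs were far from equal under each length. *Col4a5* was 13.6 times as high as *Col4a6*, its partner in some basement membranes of skin and muscle. *Col8a1* was 12.2 times as high as *Col8a2* (18.1 with the longest transcript). The ratio of *Col9a1* to *Col9a2* was 0.0603, and that of *Col11a1* to *Col5a1*, which can share a fibril, was 0.0809. *Col4a3* stood at 0.337 of *Col4a4* and at 0.299 of *Col4a5*, although the kidney molecule holds 1 chain of each. Of the 8 pairs that were assigned a chain ratio here, 2 were within 2-fold of it per kb of all exons. With the longest transcript there were 3, and with coding sequence 4. *Col8a1* over *Col8a2*, *Col9a1* over *Col9a2* and *Col11a1* over *Col5a1* were assigned none and stand outside this count, which does not mean that no ratio is known.

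**Figure D3:**
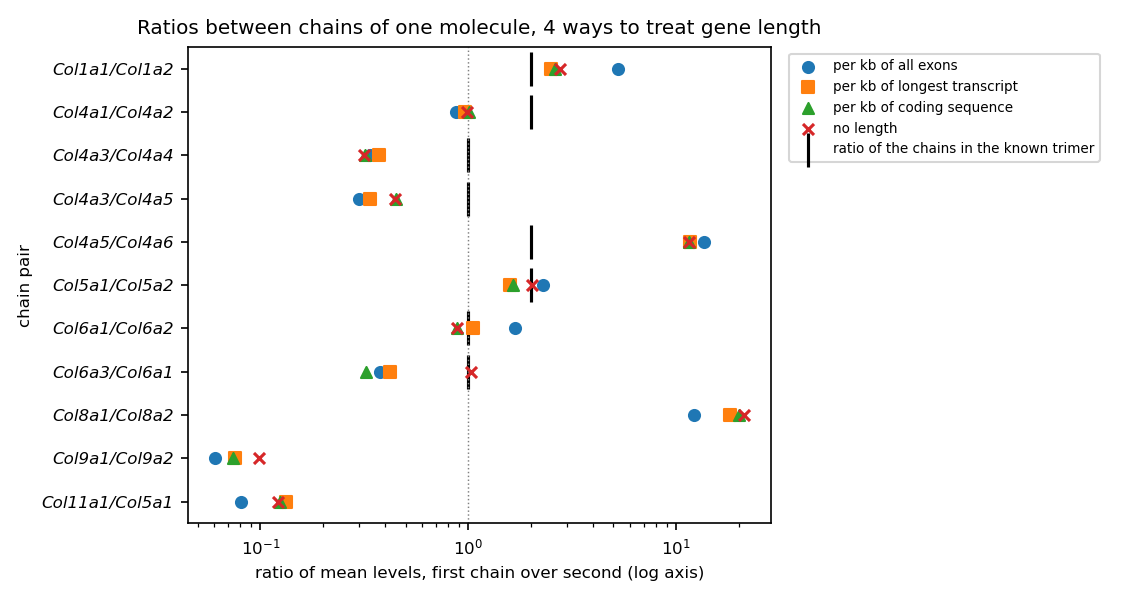
Ratio of the mean levels of paired collagen chains (x axis, log scale, first chain over second) for 11 pairs (y axis), with gene length taken as all exons, longest transcript, coding sequence or not at all. Vertical bars mark the ratio of chains in the known molecule, where there is 1. *Col1a1* over *Col1a2* moves from 5.24 to 2.497 with the choice of length, while *Col4a5* over *Col4a6* stays above 11.

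Chains of some molecules lie next to each other in the genome. Those of others lie on different chromosomes, such as *Col1a1* on 11 and *Col1a2* on 6, or *Col8a1* on 16 and *Col8a2* on 4. *Col4a1* (chr8:11198423-11312826, minus strand) and *Col4a2* (chr8:11312805-11449287, plus strand) run head to head, and their annotated 5′ ends overlap by 22 bases. *Col4a4* and *Col4a3* on chromosome 1 are divided by 71 bases and *Col4a6* and *Col4a5* on the X chromosome by 1308 bases, in the same arrangement. Levels per kb within these pairs differed 1.14-fold, 2.97-fold and 13.6-fold, in the order of the distance, which is a description of 3 pairs. *Col3a1* and *Col5a2*, chains of different collagen types, run tail to tail 24614 bases apart and differed 9.58-fold. *Col6a2* and *Col6a1* lie 85161 bases apart on 1 strand and differed 1.67-fold.

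The start regions of 4 members are shown because they carry the most abundant fibrillar chains with an entry and the shared start of the type IV pair. Each is a stretch of RefSeq sequence (GRCm38.p6), from 250 bases before to 50 bases from the start site on, 5′ to 3′ on the strand of the gene. Capitals mark the motif TATAAA and the motifs CCAAT (or its complement ATTGG) and GGGCGG (or its complement CCGCCC) on either strand. The windows are chr6:4505368-4505667 (plus) for *Col1a2*, chr1:45311288-45311587 (plus) for *Col3a1*, chr8:11312777-11313076 (minus) for *Col4a1* and chr8:11312555-11312854 (plus) for *Col4a2*.
Col1a2: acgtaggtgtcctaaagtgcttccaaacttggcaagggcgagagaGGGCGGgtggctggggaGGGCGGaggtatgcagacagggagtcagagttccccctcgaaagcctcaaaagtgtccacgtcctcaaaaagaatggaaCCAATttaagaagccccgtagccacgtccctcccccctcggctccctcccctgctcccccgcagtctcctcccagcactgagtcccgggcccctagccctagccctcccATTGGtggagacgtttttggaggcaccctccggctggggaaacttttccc
Col3a1: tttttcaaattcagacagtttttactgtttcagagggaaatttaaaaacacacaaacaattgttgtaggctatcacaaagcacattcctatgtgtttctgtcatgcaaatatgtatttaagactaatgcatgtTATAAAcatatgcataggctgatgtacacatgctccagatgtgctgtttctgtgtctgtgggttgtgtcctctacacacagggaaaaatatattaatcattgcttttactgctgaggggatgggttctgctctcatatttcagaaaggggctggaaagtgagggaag
Col4a1: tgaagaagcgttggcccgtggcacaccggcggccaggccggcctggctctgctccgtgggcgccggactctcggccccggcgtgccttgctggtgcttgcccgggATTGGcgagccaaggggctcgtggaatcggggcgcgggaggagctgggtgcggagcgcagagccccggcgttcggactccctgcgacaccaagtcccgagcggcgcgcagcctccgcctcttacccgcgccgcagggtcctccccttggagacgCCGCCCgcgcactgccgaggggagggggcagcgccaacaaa
Col4a2: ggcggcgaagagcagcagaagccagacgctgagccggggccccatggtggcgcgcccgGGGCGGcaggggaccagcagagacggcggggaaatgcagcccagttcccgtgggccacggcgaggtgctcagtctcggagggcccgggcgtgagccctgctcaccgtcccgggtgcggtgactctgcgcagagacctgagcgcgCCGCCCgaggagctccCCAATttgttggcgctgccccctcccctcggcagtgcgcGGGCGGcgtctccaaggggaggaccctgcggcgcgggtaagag

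*Col3a1* was the poorest in G and C of all members with a window, at 37.7%, and held TATAAA 117 bases before its start and neither other motif. *Col1a2* had 2 CCAAT and 2 GGGCGG matches and no TATAAA. The *Col4a1* and *Col4a2* windows had 74.0% and 73.7% G and C and no TATAAA, and they share 1 GGGCGG, at chr8:11312812-11312817, within the 22 bases where the genes overlap. Windows were found for 35 of 44 members, with 38 windows in all. A member was counted if any of its windows held the motif, while the share of all windows counts each window. TATAAA was present in 5 of the 35 members (14.3%) against 13.6% of all 32851 windows, CCAAT in 13 (37.1%) against 37.4%, and GGGCGG in 22 (62.9%) against 35.7%. The median G and C content was 59.8% for collagen windows and 52.7% for all windows. A match of letters is not evidence that a factor binds there.

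For the 6 lowest members the deposited mean could be split into whole reads of the 6 libraries. The split gives no labels, so the libraries are numbered by falling size factor, and none was assigned to a genotype. *Col10a1* had 33, 17, 37, 21, 26 and 16 reads in libraries 1 to 6, or 15.6 to 38.3 normalized reads. *Col17a1* had 30, 22, 34, 17, 29 and 22 reads, or 17.6 to 35.2 normalized reads. Both were found in every library, at levels within 2.46-fold of each other.

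The other 4 were solved only after means of up to 75 were admitted, a limit chosen after seeing the data. *Col6a4* had 29, 20, 38, 43, 73 and 37 reads, highest in library 5. *Col19a1* had 38, 36, 59, 52, 92 and 33 reads, also highest in library 5. *Col25a1* had 40, 26, 25, 64, 33 and 74 reads, so that libraries 4 and 6 stood above the rest. *Col4a6* had 51, 24, 32, 87, 99 and 127 reads, a 6.36-fold range of normalized reads. The variance between libraries was 1.68 times that of counting alone for *Col17a1* and 2.77 times for *Col10a1*, but 11.2 to 12.7 times for *Col6a4*, *Col25a1* and *Col19a1* and 31.1 times for *Col4a6*. Libraries of both genotypes enter these numbers, so they hold the spread between animals and any difference between genotypes together.

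**Figure D4:**
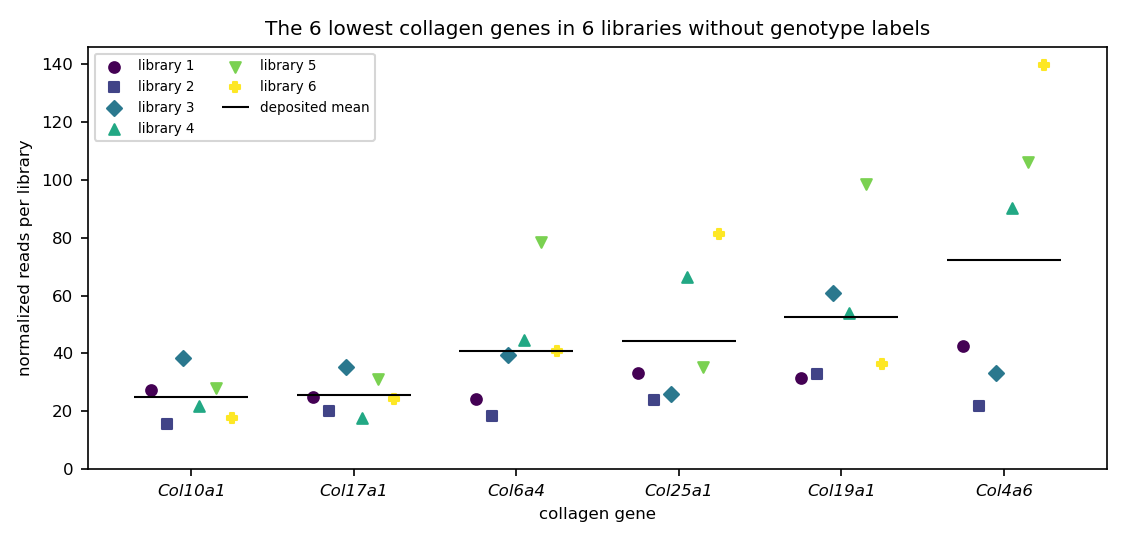
Normalized reads (y axis) of the 6 lowest collagen genes (x axis) in each of 6 libraries, which carry no genotype label. Horizontal lines are the deposited means. *Col4a6* spreads from 22.0 to 140 normalized reads and *Col17a1* from 17.6 to 35.2.

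Collagen chains need enzymes, chaperones and proteases before they form fibers. Of 49 such genes and collagen receptors on a list, 46 had a mean of at least 10, the low limit used above. Of the 49, 21 lay above the median collagen level of 427 per kb. The shares of all genes that pass these limits were not computed, so neither count sets the listed genes apart from other genes. Among enzymes that modify the chains, *P4hb*, a subunit of prolyl hydroxylase, had 3328 per kb and the prolyl isomerase gene *Ppib* 1505 per kb. The lowest were *Colgalt2*, a galactosyltransferase, with 45.6 per kb and *P4ha3* with 44.7 per kb. *Serpinh1*, which encodes the collagen chaperone Hsp47, was the highest gene of the list with 9362 per kb, above 40 of the 44 collagens. *Creb3l1*, a transcription factor of collagen secretion, had 2088 per kb, and the coat protein genes *Sec24d* and *Sec23a* had 412 and 405 per kb.

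For propeptide removal, *Pcolce*, an enhancer of the C-proteinase, had 2388 per kb and *Adamts2*, the N-proteinase of type I collagen, 928 per kb. *Mep1a* was at 0.286 per kb and *Mep1b* was listed at 0. Cross-linking enzymes were led by *Lox* at 1424 per kb and *Loxl2* at 926 per kb, while *Loxl3* had 181 and *Loxl4* 25.0 per kb. Among receptors, *Itgb1*, the beta chain shared by all collagen-binding integrins, had 4213 per kb and *Mrc2*, which takes up collagen, 533 per kb. *Itga10* of cartilage had 12.7 per kb and *Gp6* of platelets 0.0235 per kb. *Adgrg6*, a receptor that SCs need for myelination and that binds type IV collagen, had 191 per kb.

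**Figure D5:**
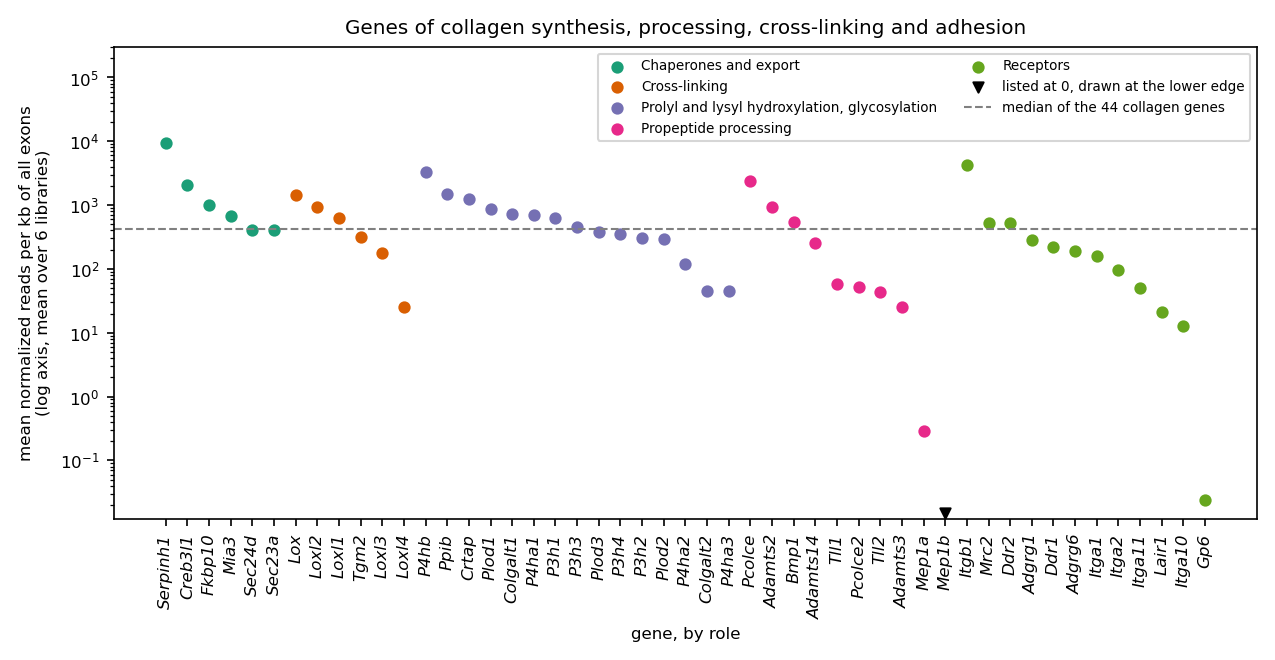
Level of 49 genes of collagen synthesis, processing, cross-linking and adhesion (x axis, by role) in mean normalized reads per kb over 6 libraries of both genotypes (y axis, log scale). The dashed line is the median of the 44 collagen genes at 427 per kb. *Serpinh1* stands highest at 9362 per kb, and *Mep1b* is listed at 0 and drawn as a triangle at the lower edge.

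The nerve held markers of several cell types that make collagen, and their part in the collagen levels was not tested. All 10 SC markers had a mean of at least 10, with 396 per kb for *L1cam* and 56358 per kb for *Mbp*, a myelin protein gene. The 7 fibroblast markers, a list that includes *Col1a1*, all passed too, with 8191 per kb for *Dcn* and 677 per kb for *Pdgfra*. So did all 4 perineurial, 4 endothelial, 4 mural, 4 macrophage and 3 adipocyte markers and all 8 markers of skeletal muscle. Of the muscle markers, *Myh4* had 3325 per kb (mean 20004) and *Ttn* 250 per kb (mean 29176). Passing this limit says little by itself, since a mean of 24.8 stood above only 51.1% of the genes with a mean above 0. Of 8 cartilage and bone markers 5 had a mean of at least 10. *Acan* had a mean of 92.1, while *Matn1* and *Matn3* had 2.54 and 2.19, beside 3646 for *Col2a1* and 2745 for *Col9a2*. *Sox9*, at a mean of 2449, is also known from nerve. Of the keratinocyte markers, *Krt10* had a mean of 194, *Krt5* 7.55 and *Krt14* 0.936, beside 25.6 for *Col17a1*.

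Counts of some members may be affected by overlapping genes. For genes on the opposite strand this depends on whether reads were counted by strand, which the sources used here do not give. Exons of 13 members overlap those of other genes, for 10 members on the opposite strand. The overlap covered 6.07% of the exons of *Col9a3* (with *Tcfl5*), 5.65% of those of *Col4a3* (with *C430014B12Rik*) and less in the others. *Tcfl5* had a mean of 67.7 beside 390 for *Col9a3*, and *C430014B12Rik* had 11.0 beside 368 for *Col4a3*. *Col20a1* shares 1.54% of its exons with *BX649560.1* on the same strand, which had a mean of 291 beside 131.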

How the data were processed

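RNA was isolated at P9 from the sciatic nerve of 6 mice, 3 per genotype, labelled as biological replicates. Libraries of the authors were stranded, and the authors mapped reads with STAR on mm10, version 2.5.1 by the submitters' processing notes. HTSeq then gave the authors reads per gene, of which only unique mappings entered, and DESeq2 their comparison. The number 1.10.1 stands beside R in the authors' notes and beside DESeq2 in their methods. The deposited header names Ensembl 82, and the methods name a later release. The signal column deposited by the authors is headed raw but holds the mean over the 6 libraries of reads divided by size factors. The table holds 6 further columns of the authors' own comparison (log2 fold change, its standard error, the Wald statistic, p, adjusted p and linear fold), which were not used. No exact library totals are given, so the sum of the means, 25608535, stands for the reads counted in an average library. It is not the sequencing depth, for which the methods of the study name a larger approximate number.

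Lengths, exons and transcripts came from GENCODE M21 on the same assembly, in which all 44 members were found. Main lengths joined all annotated exons of a gene. Of the list genes, every member, the 2 highest and 2 lowest genes per kb of each pathway group and further markers are named. *Adgrg6* and genes named for their overlap, sequence or place among the markers were chosen after their values were seen. Means up to 40 were split into whole reads with a tolerance of 1e-13, which was tested on simulated data, as was the search for repeats. All 60 simulated means up to 40 had 1 split, and it was right. Of 20 simulated means up to 75, 18 had 1 split, which was right in all 18. RefSeq proteins were not used here, and repeats were read from coding sequences instead. A level that the naming of markers would include is not reported here. No test was run. Members and lists were chosen with earlier results of these data known. All steps ran in Python 3.11.15 (matplotlib 3.10.9, scipy 1.17.1, pandas 2.3.3, numpy 2.4.6).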

Additional observations from a re-analysis of the deposited data

How the results depend on the processing

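The share of collagens in the summed means was 7.27%, and it became 7.53% among protein-coding genes, 3.47% per kb and, 2.11% without the 3 most abundant members, a setting added with the data in view. The fibrillar share of the collagen level was 77.8%, and became 80.3% with the longest transcript, 80.5% without length and 79.7% with coding length, which was added likewise. Within 2-fold of the assigned chain ratio were 2 of the 8 pairs that had one, 3 with the longest transcript, 4 with coding length and 4 without length. All 44 members had a mean of at least 10, 44 of at least 1 and 40 of at least 50. Of 9 members the level per kb rose over 1.5-fold with the longest transcript, at most 2.94-fold for *Col26a1*. Pathway genes above the collagen median numbered 21 with both lengths. Whole reads were found for 2 members with means up to 40, for 0 with means up to 20, for 2 with a wider tolerance and for 6 with means up to 75. The planned coding length from RefSeq proteins and the search for integrin motifs were not run. No paired analysis was possible because the table has no columns per library, and for the same reason no library could be left out. Precision is limited to counting error, and members above a mean of 75 have no value per library.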

Other observations

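Outside the collagen genes, 48 of 18389 genes searched also had a run of at least 10 glycine codons every 3 codons. The longest such runs were in *Marco* (81 triplets), a scavenger receptor of macrophages, and in *Sftpd* and *Colq* (59 triplets each). *Marco* had 7.61 normalized reads per kb and *Colq*, the tail of acetylcholinesterase, 3.50 per kb. The genes with a run that stood highest per kb were *Emid1*, with 27 triplets and 4423 per kb, and *Gldn*, with 28 triplets and 2434 per kb. *Gldn* encodes gliomedin, a protein that SCs place at nodes of Ranvier. The complement genes *C1qa* and *C1qb*, which macrophages express, had 1346 and 1283 per kb. The pattern is not proof of a collagen domain, since *Ncl*, which encodes a nucleolar protein with glycine-rich repeats, had a run of 14 triplets. These genes were chosen after their values were seen.

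In *Col4a6* the 6 unlabelled libraries fell into a lower and a higher set. Libraries 1, 2 and 3 had 42.5, 22.0 and 33.1 normalized reads, and libraries 4, 5 and 6 had 90.2, 106 and 140. *Col25a1*, with 33.3, 23.8, 25.9, 66.4, 35.4 and 81.5 normalized reads in libraries 1 to 6, and *Col6a4*, with 24.1, 18.3, 39.4, 44.6, 78.4 and 40.7, also had their lower values in libraries 1, 2 and 3, with narrower gaps between the sets. *Col19a1* had 31.6, 33.0, 61.1, 53.9, 98.8 and 36.3, so that its sets overlapped. They also overlapped in *Col10a1*, with 27.5, 15.6, 38.3, 21.8, 27.9 and 17.6. In *Col17a1* they did so as well, with 25.0, 20.1, 35.2, 17.6, 31.1 and 24.2. The sets were drawn from the values of *Col4a6* itself, and libraries 1, 2 and 3 are those with the largest size factors. Among the low markers of other tissues, the bone gene *Ibsp* had 15, 21, 28, 43, 21 and 23 reads in libraries 1 to 6 and the cartilage gene *Comp* had 16, 10, 20, 12, 31 and 4. *Col10a1* was highest in library 3, *Ibsp* in library 4 and *Comp* in library 5. *Bglap*, a bone gene, had 0, 0, 12, 13, 4 and 6 reads. Markers of skeletal muscle were too abundant to be split. Which libraries came from which genotype was not given by the table.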
